A study of Mus musculus with 2 samples.

Results

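The forkhead genes are a family of transcription factors that share a DNA-binding domain of winged-helix fold. Members were the protein-coding genes whose symbol reads Fox, a letter and a number, with an optional last letter, and Foxj1 and pseudogenes were left out. This gave 43 genes of the 21474 protein-coding genes named by GENCODE M21. The assay, labelled total RNA-seq, was done on the embryonic facial prominence, from which face, palate and jaws grow, in 2 libraries of healthy B6NCrl mouse embryos at embryonic day 15.5. Replicate 1 pooled 78 embryos and replicate 2 pooled 62, with males and females mixed in both, and 10 ng of RNA longer than 200 nucleotides entered each library. A low-input kit manual is linked in the labels too, and which RNA species it favoured is not known here, which bears on levels of noncoding and retained-intron models. Both libraries form 1 group without treatment or mutation, so levels are described and no test between groups exists. The labels call them biological replicates and give both the same donor label, and the spread between them may be partly technical.

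Most forkhead proteins bind DNA as single molecules, and they act as activators or repressors. Foxc, Foxd, Foxf and Foxl genes pattern mesenchyme and neural crest, Foxa, Foxe, Foxi and Foxq genes act in epithelia, and FoxO proteins carry insulin and growth factor signalling into the nucleus. In the face, Hedgehog signals from the epithelium are known to turn on Foxf and Foxd genes in the mesenchyme beneath, and loss of Foxe1 or Foxf2 gives cleft palate.

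A gene was called detected at 1 TPM (the level of a transcript, corrected for its length and the total of its library) or more in both libraries. By that rule 27 of the 43 members were detected, beside 65.4% of all protein-coding genes. The members' median level was 2.35 TPM beside 6.14 TPM over coding genes, and detected members had a median of 4.61 TPM beside 18.1 TPM over detected coding genes. Summed over members, TPM was 283 in replicate 1 and 309 in replicate 2, a mean of 296 ± 18.5 (SD, n = 2). The detected share was thus near that of all coding genes, while the median level was lower. The 2 highest members held 45.6% of the summed level and the 4 highest 60.1%. Of the detected members 3 lay at 20 TPM or more, 3 from 10 to 20 TPM, 7 from 5 to 10 TPM and 14 from 1 to 5 TPM.

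Expected counts (reads assigned to a gene by a model, which need not be whole) summed to 37128010 in replicate 1 and 38543623 in replicate 2. Spike-in sequences took 2.91% and 4.59% of them, and members held 21298 and 23609 counts. The labelled tissue was checked on 10 markers of facial mesenchyme, all of which were detected. Their median was 64.7 TPM, and the highest were Msx1 at 145 and 158 TPM, Osr2 at 99.9 and 120 TPM and Prrx1 at 79.0 and 86.1 TPM. In bulk tissue, fewer cells of a type and less RNA per cell cannot be told apart, and this holds for each level given here.

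**Figure D1:**
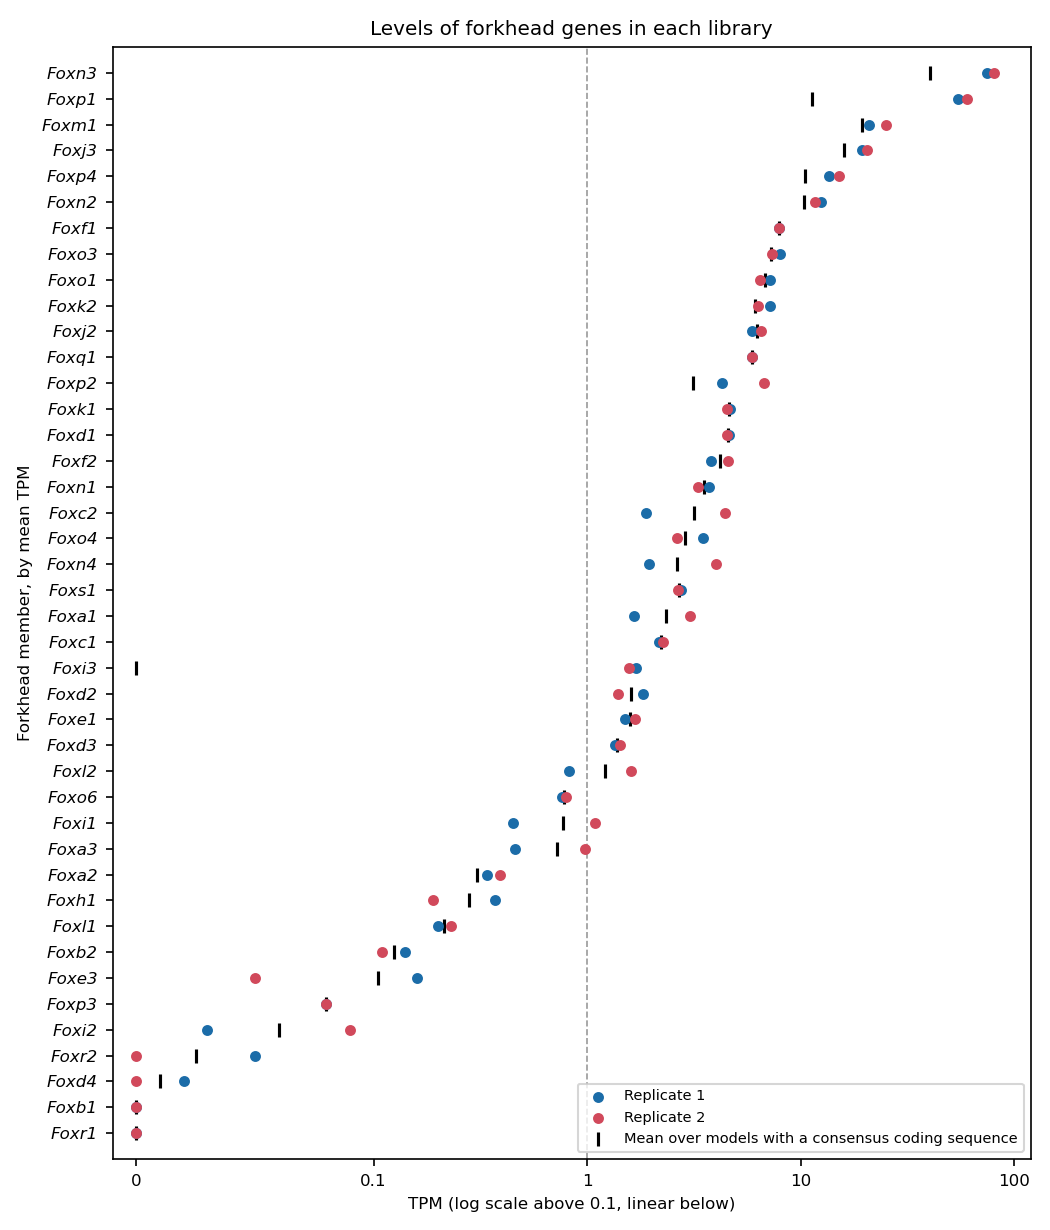
TPM of the members reported here (rows, by mean level) in replicate 1 (blue) and replicate 2 (red), on an axis that is logarithmic above 0.1 TPM and linear below, with the mean over transcript models that carry a consensus coding sequence as a black bar and the detection threshold dashed. Foxn3 and Foxp1 lie highest, their black bars lie far below their points, and Foxi3 has its black bar at 0.

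Promoter sequence was read from RefSeq (GRCm38.p6), as windows of 300 bases that end 50 bases after a start site. A window was found for 28 of the 43 members, 33 windows in all. The stretches shown here are the 250 bases before the start site, 5′ to 3′ on the gene's strand, with each CG dinucleotide in capitals, because the share of CpG-rich windows is the sequence feature described next. The first pair are alternative starts of Foxp1, at chr6:99028299-99028548 and chr6:99266516-99266765, both on the minus strand. The others are Foxk2 at chr11:121259737-121259986 on the plus strand, the member with the most CG, Foxn1 at chr11:78386609-78386858 on the minus strand, a detected member with few CG, Foxa1 at chr12:57546112-57546361 on the minus strand and Foxi1 at chr11:34208090-34208339 on the minus strand, both of which were higher in replicate 2.
Foxp1, start at 99028298: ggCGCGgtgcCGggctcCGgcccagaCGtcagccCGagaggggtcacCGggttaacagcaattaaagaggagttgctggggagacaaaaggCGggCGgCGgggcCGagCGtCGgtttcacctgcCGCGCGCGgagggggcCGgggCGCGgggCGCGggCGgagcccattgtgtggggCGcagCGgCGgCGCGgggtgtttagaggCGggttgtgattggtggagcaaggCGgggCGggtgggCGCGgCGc
Foxp1, start at 99266515: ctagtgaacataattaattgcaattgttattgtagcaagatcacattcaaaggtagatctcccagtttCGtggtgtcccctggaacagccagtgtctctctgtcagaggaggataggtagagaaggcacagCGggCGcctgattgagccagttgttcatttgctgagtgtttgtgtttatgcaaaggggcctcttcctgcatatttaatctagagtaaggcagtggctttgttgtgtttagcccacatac
Foxk2: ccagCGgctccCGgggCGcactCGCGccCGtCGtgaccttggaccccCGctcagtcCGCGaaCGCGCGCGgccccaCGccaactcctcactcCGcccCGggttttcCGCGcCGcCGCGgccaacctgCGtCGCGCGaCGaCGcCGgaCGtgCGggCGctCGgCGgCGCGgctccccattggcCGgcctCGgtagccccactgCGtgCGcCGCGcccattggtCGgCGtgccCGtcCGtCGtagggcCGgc
Foxn1: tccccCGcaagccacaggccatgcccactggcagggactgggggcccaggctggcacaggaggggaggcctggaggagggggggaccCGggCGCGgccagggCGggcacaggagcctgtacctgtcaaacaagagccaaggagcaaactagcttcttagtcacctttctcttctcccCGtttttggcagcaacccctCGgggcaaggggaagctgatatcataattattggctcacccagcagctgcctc
Foxa1: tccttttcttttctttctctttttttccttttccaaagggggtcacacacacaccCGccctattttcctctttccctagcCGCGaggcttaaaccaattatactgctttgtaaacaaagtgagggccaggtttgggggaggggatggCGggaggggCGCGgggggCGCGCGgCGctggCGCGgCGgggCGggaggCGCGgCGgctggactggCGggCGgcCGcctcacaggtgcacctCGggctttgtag
Foxi1: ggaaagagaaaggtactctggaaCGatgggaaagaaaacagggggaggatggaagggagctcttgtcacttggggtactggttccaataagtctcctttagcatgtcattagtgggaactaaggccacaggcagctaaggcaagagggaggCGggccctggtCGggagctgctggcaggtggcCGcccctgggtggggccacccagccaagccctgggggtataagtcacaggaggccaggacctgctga
The stretch before the Foxp1 start at 99028298 holds 34 CG dinucleotides, and that before the start at 99266515 holds 3. Foxk2 holds 48, Foxa1 21, Foxn1 7 and Foxi1 4. Transcript models that begin within 100 bases of the CG-rich Foxp1 start took 25.4 and 31.0 TPM, 46.7% and 51.2% of the gene's level, and those at the CG-poor start took 2.70 and 1.37 TPM, 4.97% and 2.26%. The rest of Foxp1 lay on models that begin elsewhere.

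A window was called CpG-rich at 50% GC or more and an observed over expected CG ratio of 0.6 or more. With 1 window a member (the one with the highest level on models that begin there), 19 of the 28 members were CpG-rich. Over the 32851 RefSeq windows the share was 33.5%, counting every window of a gene without such a choice. Of all 33 member windows 20 were CpG-rich. With 1 window a member, detected members were CpG-rich in 15 of 17 cases and the other members in 4 of 11. The same split by detection was not made over all genes. The median number of CG dinucleotides in the 300 bases was 31 in detected members, 10 in the others and 7 over all windows. Foxn3 and Foxn1 were the detected members without a CpG-rich window. For Foxn3 the window belongs to a RefSeq start at which models held 0.34 and 0.16 TPM, so it says little of where its transcripts begin. The same holds for Foxj2, counted as CpG-rich, whose window has no model start within 100 bases and lies in a Foxj2 exon over 250 bases. Among members not detected, Foxl2 and Foxr1, both counted as CpG-rich, have windows with the same 2 traits in their own exons. The window of Foxd4, not CpG-rich, also has no model start within 100 bases. A set of 3 short motifs was searched on both strands of the 300 bases, and none of them contains another. The forkhead core TGTTTA was in 3 of 28 members beside 13.4% of all windows, CCAAT in 14 beside 37.4%, and TATAAA in 2 beside 13.6%. Over all 33 member windows, these motifs were in 5, 15 and 3. Foxa1 and Foxp1 were the detected members with the forkhead core, and no detected member had TATAAA.

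**Figure D2:**
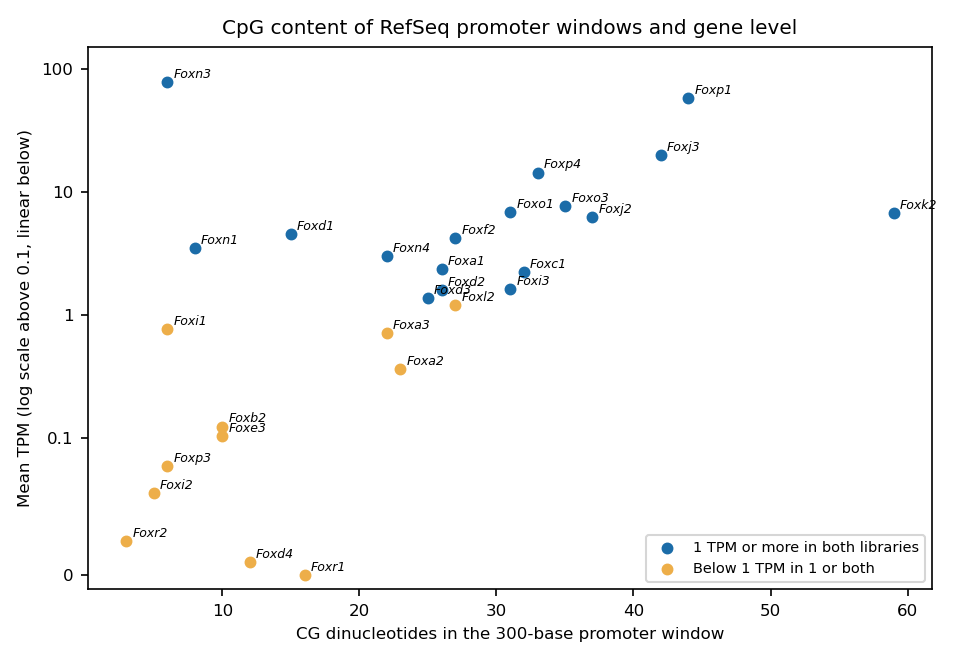
CG dinucleotides in the 300-base RefSeq promoter window (x axis) and mean TPM over the 2 replicates (y axis, logarithmic above 0.1 and linear below), 1 point for each of 28 members, blue where detected and yellow where not. The 17 detected members have a median of 31 CG and the 11 others a median of 10, and Foxn3 and Foxn1 stand at the upper left with 6 and 8.

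Broadly expressed members carried most of the family's level. This group of 7, which holds Foxn3, Foxm1, Foxj3, Foxn2, Foxj2 and the Foxk pair, summed to 150 ± 7.58 TPM (SD, n = 2), all 7 were detected, and none differed by 1.5-fold between the replicates. Foxn3, a repressor linked to cell cycle checkpoints (ENSMUSG00000033713.7, chr12:99190078-99563582 in mm10), was the highest member at 74.4 and 80.7 TPM. Foxm1, an activator of genes of mitosis (ENSMUSG00000001517.10, chr6:128362967-128376146), was at 20.8 and 25.3 TPM. Foxj3, known as an activator of Mef2c in muscle, was at 19.3 and 20.5 TPM. Foxm1 and Foxj3 did not lie apart, since the deposited bounds of their levels overlapped in replicate 1. Foxn2 was at 12.5 and 11.7 TPM and Foxj2 at 5.95 and 6.52 TPM. The Foxk proteins recruit Sin3 repressor complexes and act on glycolysis and autophagy genes. Foxk2 was at 7.17 and 6.29 TPM and Foxk1 at 4.68 and 4.54 TPM.

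Genes that FoxM1 and FoxK proteins act with or on were measured from fixed lists. All 15 Foxm1 target genes were detected. Their median was 69.1 TPM, and the highest were Cks1b at 286 and 269 TPM, Ube2c at 238 and 238 TPM and Birc5 at 192 and 177 TPM, which act in cell division. All 6 Foxm1 partners were detected at a median of 17.9 TPM, led by Rbbp4, Lin37 and Mybl2, members of complexes that time cell cycle genes. All 12 FoxK partners were detected at a median of 25.4 TPM, led by Sin3b at 138 and 133 TPM, Ogt at 128 and 131 TPM and Bap1 at 59.9 and 60.5 TPM. In these lists no gene passed 1.5-fold between the replicates.

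FoxP members followed, with a summed level of 77.4 ± 7.21 TPM (SD, n = 2) over 4 genes, 3 of them detected. Foxp1 held most of this sum, and on models with a consensus coding sequence it was at only 11.6 and 11.03 TPM. The place of the group thus depends on which models are counted. FoxP proteins are repressors that, unlike most of the family, pair with one another through a leucine zipper. Foxp1 (ENSMUSG00000030067.13, chr6:98925338-99522721) was at 54.4 and 60.5 TPM, Foxp4 at 13.6 and 15.2 TPM and Foxp2, best known from speech and vocal circuits, at 4.27 and 6.73 TPM. Over all models, Foxp1 lay apart from Foxn3 above it and Foxm1 below it, in that neither the replicate values nor the deposited bounds overlapped. Foxp3, the factor of regulatory T cells, was at 0.08 TPM in both libraries on 7.09 and 7.06 counts. Of 7 markers of lymphocytes only Lck was detected, at 4.39 and 5.37 TPM, and the next by level, Cd4 and Cd3g, were under 0.5 TPM. Of 12 genes of FoxP corepressors and partners 11 were detected, with a median of 56.0 TPM over the 12, led by Ctbp1 at 208 and 195 TPM, Mbd3 at 202 and 194 TPM and Hdac2 at 187 and 186 TPM. The remaining gene, Nkx2-1, a homeodomain factor known to partner FoxP proteins, was listed at 0 in both libraries.

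FoxO members summed to 18.4 ± 1.52 TPM (SD, n = 2) over 4 genes. Akt phosphorylates FoxO proteins and keeps them out of the nucleus, so the level of their RNA does not show their activity. Foxo3 was at 8.02 and 7.38 TPM, Foxo1 at 7.17 and 6.49 TPM and Foxo4 at 3.50 and 2.63 TPM. Foxo6, known mostly from the brain and also from craniofacial growth, was below the threshold at 0.76 and 0.80 TPM. Each of the detected FoxO genes was lower in replicate 2, with fold changes of 0.88 for Foxo3, 0.91 for Foxo1 and 0.78 for Foxo4, all inside the 1.5-fold limit. Of 17 FoxO kinases and regulators 16 were detected, with a median of 25.0 TPM over the 17, led by Akt2 at 91.7 and 92.2 TPM, Akt1 at 89.7 and 66.7 TPM and Pik3r2 at 75.8 and 72.8 TPM. All 17 FoxO target genes were detected at a median of 14.0 TPM, led by Txnip at 148 and 140 TPM, Cat at 62.5 and 70.6 TPM and Ccng2 at 55.8 and 51.5 TPM. Trim63, a ubiquitin ligase of muscle, was the 1 gene of all pathway lists past 1.5-fold, at 7.57 TPM in replicate 1 and 4.94 TPM in replicate 2. None of the 8 skeletal muscle markers passed 1.5-fold, but all 8 were lower in replicate 2, with a median log2 ratio of -0.41 and a summed level of 3554 and 2668 TPM, and their part in the result was not tested.

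Members of mesenchyme and neural crest were many and low. Of 10 genes 8 were detected, their median was 2.47 TPM and their sum 29.2 ± 2.54 TPM (SD, n = 2). Foxf1, which acts in mesenchyme of lung and gut and downstream of Hedgehog signals in the face, was the highest at 7.97 and 7.93 TPM. Its close relative Foxf2, needed for the palate, was at 3.82 and 4.57 TPM. Foxd1, a Hedgehog-responsive gene of mesenchyme and of kidney stroma, was at 4.64 and 4.51 TPM. Foxc1, which acts in skull, eye and jaw mesenchyme, was at 2.17 and 2.28 TPM. Its relative Foxc2, which acts in the axial and facial skeleton and in lymphatic valves, was at 1.89 and 4.42 TPM, so replicate 2 was above Foxc1 and replicate 1 below it. Foxs1, known from pericytes and sensory neurons, was at 2.75 and 2.66 TPM. Foxd2 was at 1.82 and 1.40 TPM, and Foxd3, the factor of early neural crest, at 1.35 and 1.42 TPM. Foxl2, a gene of eyelid mesenchyme, ovary and pituitary, was at 0.82 and 1.60 TPM, and Foxl1, a gene of gut mesenchyme, at 0.20 and 0.23 TPM. All 8 genes of the Hedgehog list were detected at a median of 15.4 TPM, led by the receptor component Smo at 40.5 and 43.6 TPM, its regulator Sufu at 28.3 and 29.7 TPM and the effector Gli3 at 19.7 and 18.1 TPM, and none passed 1.5-fold.

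Epithelial and placodal members were detected in 5 of 11 cases, with a median over the 11 of 0.77 TPM and a sum of 17.7 ± 1.41 TPM (SD, n = 2). Foxq1, which acts in the hair shaft and in epithelia, was the highest at 5.92 and 5.90 TPM. In GENCODE M21 its model shares 3200 identical bases with the antisense gene A530084C06Rik, but the transcript that was counted is shorter, at 2653 bases, so the shared stretch in it was not measured. Because the strand setting of the counting is not given in the sources used here, reads of the pair cannot be told apart. Foxn1, the factor whose loss makes nude mice, which acts in hair follicles and thymus, was at 3.73 and 3.31 TPM. Hair follicle markers were all detected, 7 of 7, led by Sostdc1 at 188 and 176 TPM, Krt71 at 158 and 79.6 TPM and Krt25 at 57.2 and 20.5 TPM. Krt71 and Krt25 were past 1.5-fold with replicate 1 higher, while Foxn1 had a fold of 0.89 (0.75 to 1.05) and Foxq1 of 1.00 (0.86 to 1.15). Foxa1, a pioneer factor of endoderm and glands, was at 1.66 and 3.04 TPM. Foxi3, which acts in the first pharyngeal arch, ear and tooth and hair placodes, was at 1.69 and 1.58 TPM, and Foxe1, the thyroid and palate gene, at 1.5 and 1.68 TPM. Thyroid markers were not detected in any of 5 cases, with Tg at 0.85 and 0.44 TPM as the highest.

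Below the threshold in this group lay Foxi1, the ionocyte factor, at 0.45 and 1.09 TPM, and Foxa3, an endoderm factor, at 0.46 and 0.98 TPM. Foxa2 was at 0.34 and 0.39 TPM. The lens gene Foxe3, at 0.16 and 0.05 TPM on 3 and 1 counts, and Foxi2, at 0.03 and 0.09 TPM on 2 and 6 counts, were at or near 3 counts, the limit that a count of 0 allows. Olfactory epithelium markers were detected in 7 of 7 cases, led by Gap43 at 93.3 and 87.6 TPM, Ebf2 and Adcy3, and forebrain markers in 4 of 8, with Bcl11b and Emx2 among the highest. Of 7 lens markers 4 were detected, led by Cryaa at 6.76 and 9.84 TPM, Cryba1 and Bfsp2.

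Members of the early embryo, neural tube and germ line were near 0 except for Foxn4. Foxn4, which acts in retina and spinal cord, was at 1.96 and 4.04 TPM. Foxh1, the partner of Smad proteins in the gastrula, was at 0.37 and 0.19 TPM, Foxb2 at 0.14 and 0.11 TPM, Foxr2 at 0.05 TPM and 0, and Foxd4 at 0.02 TPM and 0. No read was assigned to Foxb1 or Foxr1 in either library. Such a count allows up to 3 counts, which is 0.0422 and 0.0405 TPM for Foxb1 and 0.0777 and 0.0745 TPM for Foxr1, a limit that covers counting error only.

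The order of levels was settled for few neighbours. Of the 42 neighbouring pairs in the order 14 had replicate values that did not overlap, and in 5 of these the deposited bounds did not overlap either. The 5 pairs were Foxn3 above Foxp1, Foxp1 above Foxm1, Foxj3 above Foxp4, Foxn2 above Foxf1, and Foxo3 above Foxo1. These orders are over all models of a gene. On models with a consensus coding sequence Foxp1, at 11.6 and 11.03 TPM, was below Foxm1, at 17.9 and 20.8 TPM. Foxo3, at 7.74 and 6.75 TPM on such models, overlapped Foxo1, at 7.17 and 6.49 TPM. The deposited bounds, whose level is not stated, belong to the posterior TPM and do not always hold the TPM itself. Foxp2 had 4.27 TPM against bounds of 4.83 to 7.05 in replicate 1 and 6.73 TPM against 7.51 to 10.2 in replicate 2. TPM lay outside its bounds for 3 members in replicate 1 and 5 in replicate 2, and all but Foxp2 had a TPM of 0 there. These were Foxb1 and Foxr1 in both libraries, and Foxr2 and Foxd4 in replicate 2. The SD was under 10% of the mean in 19 of the 27 detected members.

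Differences between the replicates were taken as the fold of replicate 2 over replicate 1, after TMM scaling, where each library had at least 10 counts of the gene. Of the 34 members so measured 7 were past 1.5-fold, and all 7 were higher in replicate 2. Over the 15721 coding genes measured in that way 4.36% were past 1.5-fold with replicate 2 higher, 2.14% with replicate 1 higher, and 6.50% in either direction. Those genes were not matched to the members for level, and the members' median level was lower. Of the 7 members 4 were detected, Foxc2, Foxn4, Foxa1 and Foxp2. With 1 library on each side there is no p-value, and the 95% exact binomial interval given with each fold covers counting error only. The median log2 ratio was 0.08 over members and 0.00 over coding genes. The counting interval left out 1 for 16 of the 34, 12 of them higher in replicate 2, beside 37.2% of coding genes.

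Foxc2 had 122 and 298 counts, a fold of 2.32 (interval 1.89 to 2.92). Foxi1 had 25 and 63 counts, a fold of 2.31 (1.499 to 4.01), and Foxa3 had 22 and 49 counts, a fold of 2.04 (1.27 to 3.71). These counts are small, and the intervals of Foxi1 and Foxa3 are wide. Foxn4 had 130 and 270 counts, a fold of 1.98 (1.61 to 2.48), and Foxl2 had 23 and 47 counts, a fold of 1.89 (1.17 to 3.38). Foxa1 had 126 and 241 counts, a fold of 1.82 (1.47 to 2.29). Foxp2 had 460 and 802 counts, a fold of 1.67 (1.49 to 1.88). By role, 3 of the 7 were epithelial (Foxa1, Foxa3, Foxi1), 2 mesenchymal (Foxc2, Foxl2), 1 a FoxP gene and 1 the neural tube gene Foxn4. Relatives of these genes varied. Foxa1 and Foxa3 both passed, and the third Foxa gene, Foxa2, had a fold of 1.41 (0.70 to 3.23) on 13 and 20 counts. Foxc1 had a fold of 1.05 (0.87 to 1.28), below the interval of Foxc2, and Foxi3 of 0.94 (0.62 to 1.43), below that of Foxi1. The lowest folds were those of Foxd2 at 0.77 (0.58 to 1.03) and Foxo4 at 0.78 (0.65 to 0.94).

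**Figure D3:**
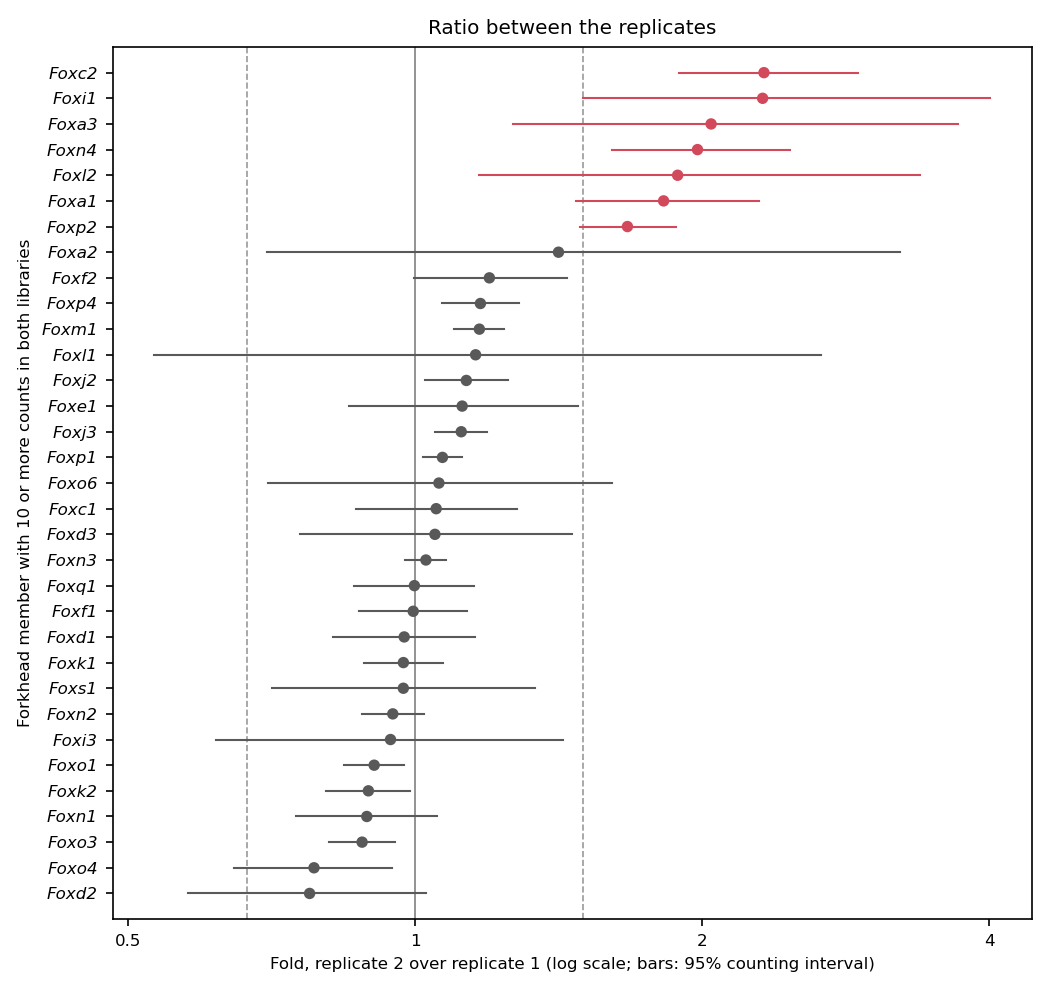
Fold of replicate 2 over replicate 1 after TMM scaling (logarithmic axis) for the members reported here that had 10 or more counts in each library, with 95% exact binomial intervals that cover counting error only and dashed lines at 1.5-fold either way. The 7 red members, from Foxc2 at 2.32 to Foxp2 at 1.67, lie right of the line, and no member lies left of the other line.

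Marker genes of several cell types were also higher in replicate 2, which with 1 ratio between 2 libraries is a shared direction only. Cartilage markers were past 1.5-fold, with replicate 2 higher, in 6 of 9 cases, with a median log2 ratio of 0.62 and a summed level of 548 and 884 TPM, led by Col2a1 at 182 and 305 TPM, Col9a3 at 111 and 172 TPM and Cnmd at 68.1 and 107 TPM. A pair of lists was added after values had been seen. Of 10 measured genes of multiciliated cells 9 passed with replicate 2 higher, with a median log2 ratio of 0.87 and a sum of 68.7 and 142 TPM. Tekt1 was at 16.5 and 31.8 TPM, Rsph1 at 15.8 and 27.6 TPM and Deup1 at 11.3 and 28.0 TPM. The defining regulator Mcidas was at 4.45 and 10.8 TPM, and Gmnc at 0.17 and 0.24 TPM. Of 7 measured genes of nasal secretory epithelium all 5 with enough counts passed, with a sum of 180 and 482 TPM, led by Bpifa1 at 168 and 457 TPM, Agr2 at 7.11 and 10.9 TPM and Cyp2a5 at 3.52 and 7.31 TPM, while Tff3 was at 0. These lists were higher in the library in which Foxc2, Foxi1, Foxa3, Foxn4, Foxl2, Foxa1 and Foxp2 were higher, and their part in the result was not tested.

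In the 4 lists of basal epithelium and blood and lymph vessels no gene passed the limit. Basal epithelium markers (8 of 8 detected, led by Krt14, Krt15 and Krt5) had a median log2 ratio of -0.01 and sums of 3152 and 2913 TPM. Endothelium (8 of 8, led by Egfl7, Sox18 and Esam) had a median of -0.07, lymphatic endothelium (4 of 4, led by Pdpn, Lyve1 and Flt4, also added after values had been seen) of -0.18, and pericytes and smooth muscle (7 of 7, led by Acta2, Pdgfrb and Tagln) of -0.11. Ionocyte markers, the cells Foxi1 is known for, gave 0 of 3 past the limit, with Atp6v0d2 at 3.66 and 4.02 TPM, Atp6v1b1 at 2.18 and 3.17 TPM, Cftr at 0.99 and 1.03 TPM and the defining factor Ascl3 at 0.40 and 0.45 TPM. Pituitary markers, a place of Foxl2, were detected in 2 of 7 cases, led by Pomc at 1.83 and 4.67 TPM, Lhx3 at 1.44 and 1.02 TPM and Cga at 0.48 and 0.73 TPM. Of the 2 pituitary genes with enough counts, Pomc passed 1.5-fold with replicate 2 higher, a fold of 2.48 on 41 and 109 counts, as Foxl2 did, and its part in the result was not tested. Schwann cell and neural crest (6 of 6, led by Fabp7, Erbb3 and Sox10), olfactory, forebrain and lymphocyte lists each had 1 gene past the limit with replicate 2 higher. These were Fabp7, Cnga2, Tbr1 and Cd4, of which Cnga2 and Tbr1 are named because of their values. Cd4 passed on 13 and 22 counts, while its TPM went the other way, at 0.48 and 0.28. Hair follicle was the list with genes past the limit in the other direction, 2 of 7, Krt25 with a fold of 0.36 and Krt71 of 0.503, and its summed level was 427 and 300 TPM. Erythroid markers (6 of 6, led by Hba-a1, Hbb-bt and Alas2) had a median of -0.35.

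**Figure D4:**
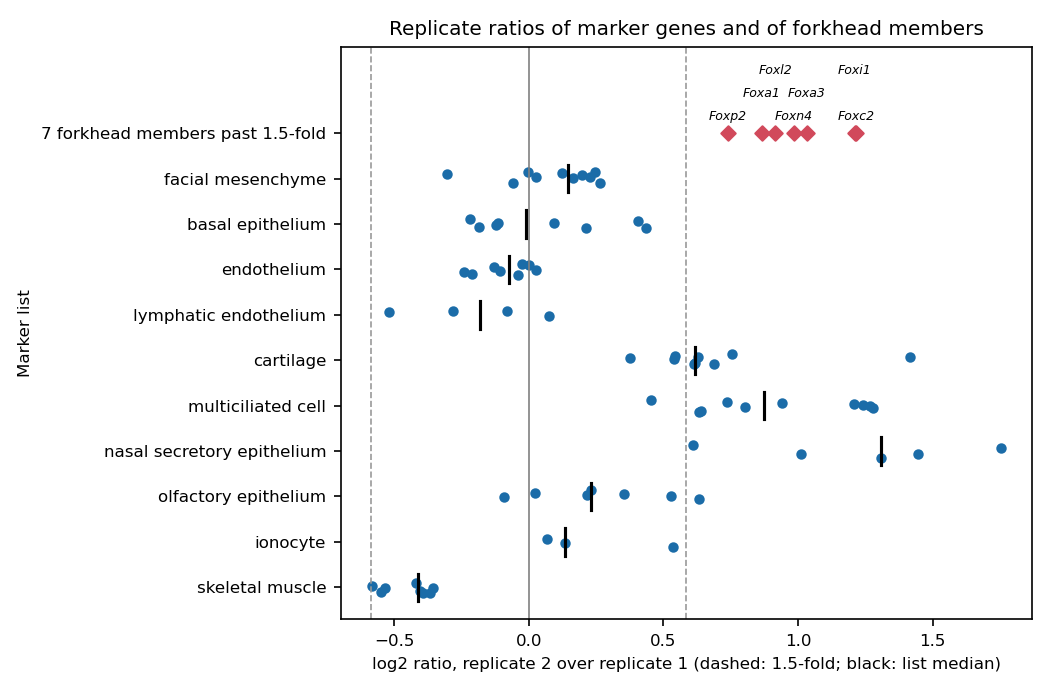
log2 ratio of replicate 2 over replicate 1 for the 7 members past 1.5-fold (red) and for marker genes of 10 cell types (blue, with the list median as a black bar and 1.5-fold dashed). Cartilage, multiciliated and nasal secretory lists have medians of 0.62, 0.87 and 1.31, skeletal muscle one of -0.41, and facial mesenchyme and basal epithelium lie around 0.14 and -0.01. The points of Foxi1 and Foxc2 overlap.

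Much of the Foxp2 difference lay on 1 transcript model. Foxp2-201, a consensus coding model with an internal start at chr6:15185506-15441201, had 31.9 counts in replicate 1 and 237 in replicate 2, or 0.23 and 1.67 TPM. Its deposited bounds ran up to 0.691 TPM in replicate 1 and from 0.609 TPM in replicate 2, so they overlapped. Foxp2-207, the leading model, which starts upstream at 14901349, had 300 and 390 counts, a scaled fold of 1.249. Without Foxp2-201 the gene had 428 and 565 counts, a scaled fold of 1.27, which is inside the 1.5-fold limit. Foxp2-201 had the largest difference in counts of the named models, so leaving it out had to lower the fold. Without Foxp2-207 the gene had 160 and 412 counts, a scaled fold of 2.46. Splitting reads among overlapping models is an estimate, and the count of the gene as a whole does not depend on it.

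Transcript models mattered for the highest members. Of the 18 members with more than 1 model 13 were detected, and all 13 were led by the same model in both libraries, beside 91.8% of detected multi-model coding genes. In 9 of the 13 the leading model held under 90% of the gene in either library, beside 79.1%. In 3 of the 13, Foxn3, Foxp1 and Foxi3, the leading model carried no consensus coding sequence, beside 16.7%. Restricted to models with a consensus coding sequence, members summed to 188 and 200 TPM, 66.3% and 64.6% of their level.

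Foxn3 was led by Foxn3-205, a coding model of 566 nucleotides annotated as incomplete, at 27.7 and 33.3 TPM, which is 37.3% and 41.3% of the gene. That model had 319 and 400 counts, against 1568 and 1713 counts for Foxn3-201, a consensus model of 2803 nucleotides at 23.5 and 24.7 TPM. The short model thus led by level per length while it took fewer reads. On consensus models Foxn3 was at 40.1 and 40.4 TPM and still the highest member. Foxp1 was led by Foxp1-225, a coding model of 1848 nucleotides without a consensus sequence, at 23.4 and 29.8 TPM or 42.98% and 49.3% of the gene, on 1007 and 1339 counts. Foxp1-204, the consensus model of 7177 nucleotides, took more counts, 1685 and 1882, and a lower level, 9.66 and 10.4 TPM. On consensus models Foxp1 was at 11.6 and 11.03 TPM, and its rank among members fell from 2 to 4. Foxi3 lay wholly on Foxi3-202, which carries no consensus sequence, so its level on consensus models was 0. The estimate is loose, since the consensus model Foxi3-201 starts nearby and had deposited bounds that reached 1.15 and 0.47 TPM, with a posterior share of 27.6% and 10.3%.

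The other members with a divided level were led by consensus models. Foxm1-201 held 85.9% and 82.5% of Foxm1, Foxn2-201 held 85.9% and 85.8% of Foxn2, and Foxn4-201 held 90.4% and 87.0% of Foxn4. In Foxn2 a retained-intron model, Foxn2-202, took 12.1% and 14.3%. Foxj3-202 held 46.7% and 43.2% of Foxj3, and Foxj3-201 followed at 30.3% and 39.4%. Foxp4-202 held 40.3% and 31.5% of Foxp4, with Foxp4-204 at 22.8% and 27.7%. Noncoding models took 29.3% and 25.4% of Foxp4. Foxp2-207 held 42.8% and 33.8% of Foxp2. Foxj2-201 went from 62.1% in replicate 1 to 86.4% in replicate 2, and Foxj2-202, which starts downstream of it, from 38.0% to 13.6%. The deposited bounds of Foxj2-201 were 2.88 to 4.44 TPM and 4.62 to 6.38 TPM, which did not overlap, and those of Foxj2-202 did overlap.

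**Figure D5:**
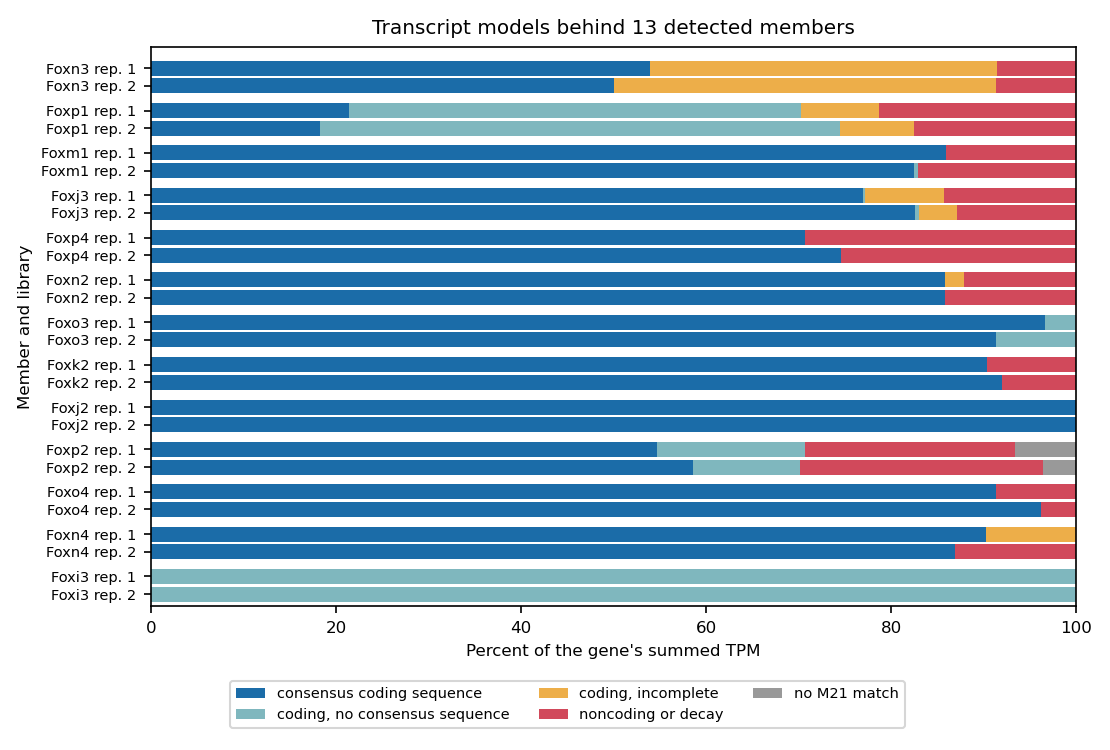
Percent of each gene's summed TPM (bars, 0 to 100) on classes of transcript models, for the 13 detected members with more than 1 model, replicate 1 above replicate 2. Consensus coding models hold 53.9% and 50.1% of Foxn3 and 21.4% and 18.2% of Foxp1, none of Foxi3, and most of the level in the other members.

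Some forkhead genes lie in clusters or beside transcripts of the opposite strand. Foxf1, Foxc2 and Foxl1 start at 121084386, 121116171 and 121127940 on chromosome 8, all on the plus strand, and Foxq1, Foxf2 and Foxc1 start at 31556134, 31625816 and 31806633 on chromosome 13. Levels within a cluster differed. In the first, Foxf1 was at 7.95 ± 0.028 TPM, Foxc2 at 3.16 ± 1.79 and Foxl1 at 0.215 ± 0.021 (SD, n = 2), and Foxc2 was 2.32-fold higher in replicate 2 while Foxf1 had a fold of 1.00. In the second, Foxq1 was at 5.91 ± 0.014 TPM, Foxf2 at 4.20 ± 0.53 and Foxc1 at 2.23 ± 0.078.

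Within 20 kb of a member's start, 33 members had another gene's start. These were 75 genes, of which 63 were measured and 24 detected. On the opposite strand within 1 kb lay 11, and 6 of these were detected. The same counts were not taken over all coding genes, so they are not shown to be particular to the family. Foxm1 shares its upstream region with Rhno1, a gene of the replication stress response whose start is 56 bases away and which was at 87.5 and 92.7 TPM, above Foxm1 itself. Foxf2 begins 24 bases from the long noncoding RNA 1700018A04Rik, at 1.58 and 1.96 TPM. Foxd2os, 384 bases from Foxd2, was at 7.73 and 6.90 TPM and thus above Foxd2 at 1.82 and 1.40 TPM. The remaining detected partners within 1 kb were Sympk beside Foxa3 at 28.7 and 29.2 TPM, Gm26826 beside Foxj2 at 1.21 and 1.30 TPM, and Ppp1r3f beside Foxp3 at 1.86 and 2.11 TPM. None of the 6 passed 1.5-fold, Sympk with a fold of 1.05 where Foxa3 had 2.04. Fendrr, a long noncoding RNA 1276 bases from Foxf1, was at 2.42 and 2.95 TPM.

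Further detected neighbours were Irf2bp1 near Foxa3, Mthfsd near Foxc2 and Foxl1, Gm12446 near Foxe1, Foxd2 and Foxd2os near Foxe3, Ppp1r16a, Cyhr1 and Kifc2 near Foxh1, and Slc2a3 near Foxj2. The others were Frg2f1 near Foxj3, Foxc2 near Foxl1, Tulp3 and Tex52 near Foxm1, Myo1h near Foxn4, Gm20402 near Foxo1, Il2rg and Med12 near Foxo4, and Upk2 near Foxr1. Foxc2, Gm20402 and Upk2 passed 1.5-fold with replicate 2 higher, Gm20402 at 1.97 and 3.37 TPM while Foxo1 was at 7.17 and 6.49 TPM. Gm20402 shares 590 identical bases with Foxo1 on the other strand, so their reads cannot be told apart without strand.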

How the data were processed

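The series holds 2 total RNA-seq libraries of 1 group. Alignment was to mm10 transcripts of annotation M4, library by library, per the note the authors deposited. Which aligner, quantifier and strand setting they used is not given in the sources used here. Per the file headers, the authors deposited an expected count and TPM for each gene and transcript, unscaled between libraries, and the percent of a gene held by each transcript. The deposited credibility bounds of TPM, of unstated level, were treated as a score. TPM sums over genes, spike-ins and other sequences together, so more spike-in means less TPM on genes.

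GENCODE M21 (GRCm38) named 42462 of the 43346 mouse rows, and 16 of the 43 members had the same identifier version there. Expected counts were rounded and scaled by TMM in edgeR 4.0.16 (R 4.3.3) with a prior count of 2, a step tested on simulated data. Coordinates, model classes and shared stretches are those of M21, whose models can differ from the ones counted. Reads shared between genes were looked for with blastn 2.17.0 as identical stretches of 100 bases or more. Other steps used Python 3.11.15 with scipy 1.17.1, pandas 2.3.3, numpy 2.4.6 and matplotlib 3.10.9. DESeq2 1.42.0 gave alternative size factors. A count of 0 was read as allowing up to 3 counts.

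Members, role groups, marker and pathway lists were chosen with earlier results of these data known. Members are named except where a result is not reported here, detected members and those from 0.5 to 1 TPM or past 1.5-fold get values, each list is represented by its 3 highest genes (with the same exception), and every detected gene within 20 kb is named. Protein sequences were not analysed here. Alternatives were other scalings, thresholds, distances, posterior mean TPM, consensus coding models (added after values were seen) and leaving out a library.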

Additional observations from a re-analysis of the deposited data

How the results depend on the processing

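The number of detected members was 27 with posterior mean TPM, 28 with TPM rescaled over coding genes, 30 and 20 at thresholds of 0.5 and 2 TPM, 34 at 10 or more counts, 26 on consensus coding models (an alternative chosen after seeing the data) and 27 to 29 with either library left out. Summed TPM was 283 to 309 with either library left out, 372 when TPM was rescaled over coding genes and 194 on consensus coding models. The 7 members past 1.5-fold were the same 7 with DESeq2 size factors, total counts, a prior count of 0.5 and deposited TPM, and counts on consensus coding models gave 8. Scaling by spike-in totals moved the median of all genes by -0.65 on the log2 scale and gave 16, of which 1, Foxi1, was higher and 15 lower in replicate 2, and relative to that median the same 7 passed. Asking for 1 count in either library gave 12, of which 8 were higher and 4 lower in replicate 2. The 4 lower were Foxd4, Foxe3, Foxh1 and Foxr2, each under 10 counts in 1 or both libraries. Asking for 50 or more counts gave 4 (Foxa3, Foxi1 and Foxl2 had too few), and for 2-fold 3. The shares of all coding genes at these settings are not given here. Neighbours detected numbered 24 within 20 kb, 54 within 50 kb and 11 within 5 kb. No paired analysis was possible because there is 1 group and 1 library a replicate number. Left out, either library leaves no ratio, so the ratios have no replicate check. Depth limits the members under 50 counts most, whose intervals are wide.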

Other observations

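Gene structure varied within the family. In GENCODE M21 13 members have a single exon, of which 8 were detected, with a median of 1.59 TPM and a highest level of 5.91 TPM in Foxq1. The 30 members with introns had 19 detected, a median of 3.29 TPM and a highest level of 77.5 TPM in Foxn3. Past 1.5-fold between the replicates were 2 of 10 single-exon members and 5 of 24 with introns. Expected counts were whole numbers within 0.005 in both libraries for 34 members and not for 9, among them Foxp1, Foxm1, Foxo1 and Foxq1. No pair of members shared an identical stretch of 100 bases or more in M21 transcripts. Stretches shared with other genes included 302 bases of Foxp1 with Gm20696 and 144 bases of Foxm1 with Tex52, both on the same strand.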
